A study of Homo sapiens with 48 samples.

Results

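The earliest time point of a BV6 time course was examined: MDA-MB-231 cells with BV6 for 3 h, against the same untransfected cells without BV6. MDA-MB-231 is an established human breast cancer cell line, and BV6, a bivalent Smac mimetic, binds inhibitor of apoptosis (IAP) proteins and makes cells lose cIAP1 and cIAP2. The members are all genes that the arrays could measure in this comparison, chosen as those with at least 1 probe that has a single gene symbol and a detection p under 0.01 on 2 or more of the 8 arrays. That rule kept 11376 probes for 8936 genes, of 20045 genes with a probe of 1 symbol. Where a gene had several such probes, the one with the highest mean signal stood for it.

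The treated group holds 2 arrays of cells given 50 nM BV6 for 3 h. The 6 control arrays are 2 each of cells left untreated and collected at 0, 9 and 15 h. Cells in both groups were grown in the same serum-containing medium and carried no siRNA. The whole series holds 48 Illumina HumanHT-12 arrays, which also cover later BV6 times, siRNA-transfected MDA-MB-231 and a second line, EVSA-T. No label gives a vehicle for the untreated cells or says that replicates were separate cultures, so the p-values below cover only sample-to-sample spread, possibly technical. The series title speaks of an early wave of expression through NF-kB and AP-1, and the 3 h arrays are the earliest that bear on it.

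As background, NF-kB is a family of dimeric transcription factors (RELA, RELB, REL, and NFKB1 and NFKB2 products) held inactive by IkB proteins or by the p100 precursor that NFKB2 encodes. The canonical arm frees RELA dimers by breaking down IkB, and NF-kB then switches on IkB genes, which closes a feedback loop. In the non-canonical arm, the kinase NIK (gene MAP3K14) drives the processing of p100 so that RELB dimers can act. In resting cells cIAP1, cIAP2, TRAF2 and TRAF3 keep NIK low by marking it for destruction, and Smac mimetics remove that brake. AP-1 is built from FOS, JUN, ATF and MAF family proteins, several of which are immediate early genes, whose transcription needs no new protein.

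Signals are normalized log2 values, so a difference of 1 is a doubling of signal. All 8 arrays share an array ID in their labels, and arrays with the same ID are taken here and below to lie on the same slide. Per array, 11032 to 12366 probes were detected. The cell line's own markers fitted its label in part: 11 of 14 mesenchymal and basal-like genes, VIM, CD44 and CAV1 among them, were detected on all 8 arrays. SPARC was detected on 0, and ZEB1 and FN1 on 1 each. Of 13 luminal genes, ESR1, PGR, GATA3, FOXA1 and CDH1 were detected on 0 arrays, as were PTPRC, CD3D, CD3E, LYZ and NKG7 among 10 leukocyte genes and 9 of 10 fibroblast and endothelial genes. Other luminal genes were present: KRT8, KRT19, EPCAM, SPDEF and XBP1 were detected on all 8 arrays. In the leukocyte list CD68 was detected on all 8 and CD14 on 5. The summed marker signals on the BV6 arrays lay within the untreated range for the mesenchymal, luminal and leukocyte lists. For the fibroblast and endothelial list the untreated range was 8.62 to 8.74 log2, with 8.70 and 8.62 on the BV6 arrays. In bulk RNA of this kind, fewer cells with a transcript and less transcript per cell cannot be told apart.

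BV6 3 h replicate 2 stood apart from the other arrays. Its correlation with the untreated arrays across genes ran from 0.969 to 0.980, against 0.985 to 0.989 for BV6 3 h replicate 1 and 0.982 to 0.991 among the untreated arrays. On replicate 2, 216 genes lay more than 1 log2 unit from the untreated mean, against 32 on replicate 1 and 1 to 26 on single untreated arrays. Beside each called gene described below, an adjusted p with 1 BV6 array left out is given where the call was lost without it; the remaining BV6 array is then assumed to vary like the other groups of the fit, which supply the spread.

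**Figure D1:**
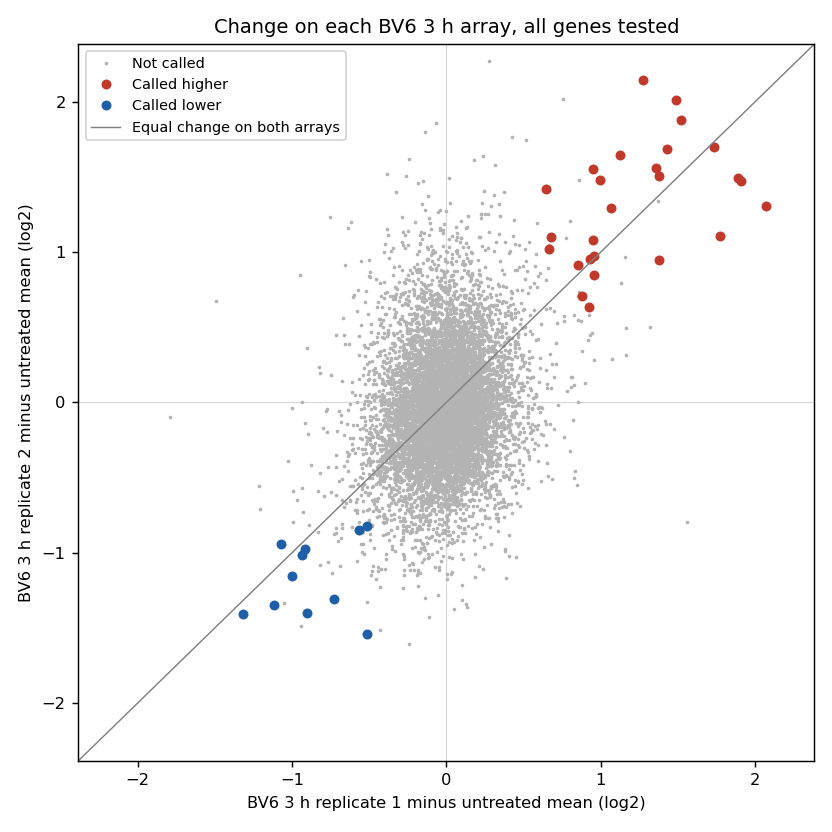
The change of each of the 8936 tested genes on BV6 3 h replicate 1 (x axis) and replicate 2 (y axis), each as the normalized signal minus the mean of the 6 untreated arrays (log2). The cloud of uncalled genes is wider along the replicate 2 axis; red points are the 26 genes called higher and blue points the 11 called lower, which moved the same way on both arrays.

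After 3 h of BV6, 37 of the 8936 genes (0.414%) differed from untreated cells at an adjusted p under 0.05 (limma, Benjamini-Hochberg). Of these, 26 were higher (0.291%) and 11 were lower (0.123%). The higher genes were led by GADD45A, CYP1B1, CXCL8, EDN1 and a block of NF-kB pathway genes, and the lower ones by NDP, IRF2BP2 and ID1. Both BV6 arrays lay above all 6 untreated arrays for all 26 and below them for all 11. The genes were picked on these same arrays, so that separation was largely set by the choice. Over all genes tested, 4.07% lay wholly above and 6.7% wholly below. The median change of all genes was -0.03 log2. The fit takes 1 spread per gene from all 8 groups, while the 2 BV6 3 h arrays correlated at 0.978, the lowest within any group. The p-values and standard errors may therefore be too small for this pair. With array weights 15 genes were called, among them 13 of the 26 and 2 of the 11. Without BV6 3 h replicate 1 the number of calls was 391, and without replicate 2 it was 13. Each of those counts rests on 1 BV6 array, with the spread taken from the other groups. Of the 37 genes, 34 were called without replicate 1, the others being CD83, PLK2 and DMBT1. Without replicate 2, 26 of the 37 were not called, with adjusted p from 0.0717 to 0.908. The 11 called both times were GADD45A, CYP1B1, EDN1, MAP3K14, NFKBIE, NFKBIA, RELB, NOCT, NFKB2, SLC30A1 and ZNF697.

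**Figure D2:**
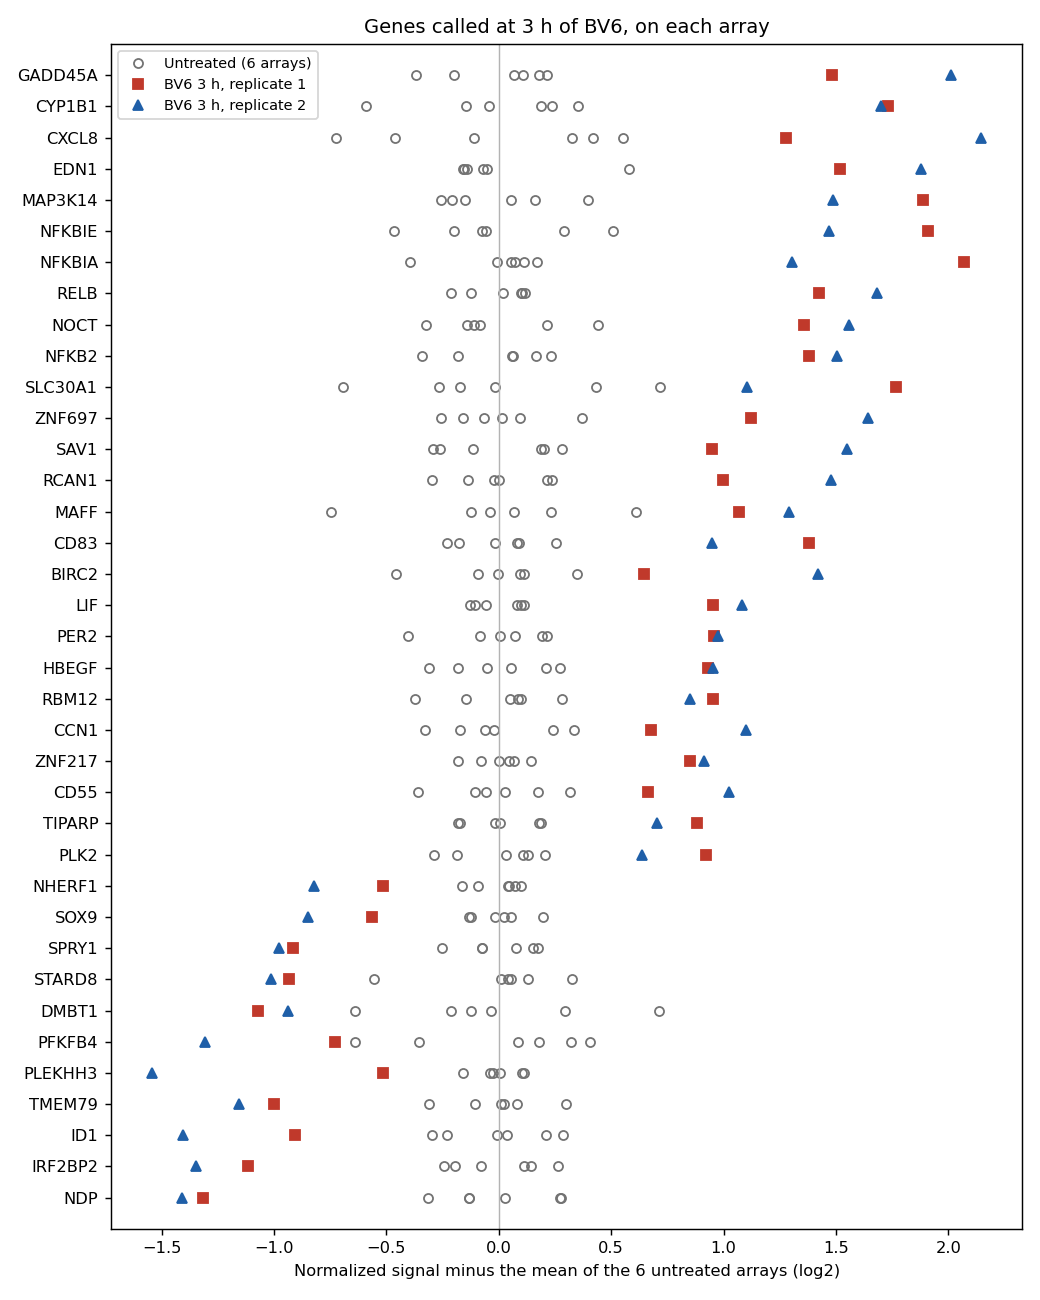
Each of the 37 genes called at 3 h (rows) on every array, as the normalized signal minus the mean of the 6 untreated arrays (log2, x axis). Open circles are the untreated arrays, red squares BV6 replicate 1 and blue triangles BV6 replicate 2. In every row both BV6 arrays lie outside the untreated circles, which was largely set by picking the genes on these arrays.

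Among the subunits and inhibitors of NF-kB, NFKB2 and RELB of the non-canonical arm and the IkB genes NFKBIA and NFKBIE rose. NFKB2, which encodes p100, read between 5.66 and 6.23 on the untreated arrays, with a median of 6.06, and 7.38 and 7.50 on the BV6 arrays, a rise of 1.44 ± 0.13 log2 (SE; adjusted p = 0.000103). A second NFKB2 probe gave 1.42. Both BV6 arrays were above every untreated one, although the detection p passed on only 1 of them and on 2 untreated arrays, since that p does not strictly follow the signal. RELB, the partner that p100 holds back, read 5.51 to 5.83 untreated (median 5.78) and 7.14 and 7.40 with BV6 (1.56 ± 0.17, adjusted p = 0.000242). It was detected on 1 of 6 untreated arrays and on both BV6 arrays.

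For NFKBIA, the gene of IkB-alpha, the untreated arrays read 10.12 to 10.69, with a median of 10.58, and the BV6 arrays 12.59 and 11.82. Its rise was 1.69 ± 0.20 log2 (adjusted p = 0.000535), with replicate 1 higher than replicate 2. For NFKBIE, the gene of IkB-epsilon, the untreated range was 6.52 to 7.50 (median 6.93) and the BV6 arrays read 8.90 and 8.46, again with replicate 1 the higher (1.69 ± 0.22, adjusted p = 0.00108). The list of NF-kB subunits and IkB proteins had 9 tested members of 11, of which these 4 were called higher and 0 lower, and all 9 estimates were above 0, as were 44.8% of all genes (median of the list 0.53 log2). RELB passed the detection filter only through its BV6 arrays, so these list values follow in part from the filter. The subunit genes RELA (0.28 ± 0.18, adjusted p = 0.595) and NFKB1 (0.17 ± 0.19, adjusted p = 0.786) did not pass. Nor did NFKBIB, the gene of IkB-beta (0.32 ± 0.24, adjusted p = 0.659), or the atypical IkB genes NFKBIZ (0.53 ± 0.19, adjusted p = 0.312) and BCL3 (0.47 ± 0.24, adjusted p = 0.492). REL was detected on 0 of the 8 arrays and was not tested.

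In the complex that controls NIK, 2 of 6 tested members were called higher. MAP3K14 itself read 5.91 to 6.56 on untreated arrays (median 6.11) and 8.05 and 7.65 with BV6, a rise of 1.69 ± 0.22 log2 (adjusted p = 0.000971). Its detection p passed on 3 of the 6 untreated arrays and on only 1 of the 2 BV6 arrays. BIRC2, which encodes cIAP1, the protein that BV6 depletes, read 9.84 to 10.65 untreated (median 10.34) and 10.94 and 11.72 with BV6 (1.03 ± 0.19, adjusted p = 0.025). A second BIRC2 probe gave 0.46, and the call went to an adjusted p = 0.659 without BV6 3 h replicate 2. TRAF1, an adaptor of TNF receptors, stood at 0.91 ± 0.24 (adjusted p = 0.131), and the IkB kinase subunit genes CHUK, IKBKB and IKBKG lay between -0.12 and 0.12. The list's median was 0.52 log2. TRAF2, TRAF3 and XIAP were not tested, and no probe on the array carries the symbol of BIRC3, which encodes cIAP2.

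The ubiquitin-editing and RNA-decay genes that restrain NF-kB gave no call among 6 tested of 11. Their median was 0.15 log2 and TNIP1, an A20-binding inhibitor, was the highest at 0.31 ± 0.18 (adjusted p = 0.548). TNFAIP3, the gene of A20, was detected on 0 of 8 arrays. Its signal was 5.24 to 5.52 untreated and 6.20 and 6.09 with BV6, below what the detection p calls present on either side, so no fold is given.

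Secreted signals moved in part. CXCL8, a neutrophil-attracting chemokine gene, read 9.19 to 10.47 on untreated arrays (median 10.02) and 11.19 and 12.06 with BV6, a rise of 1.71 ± 0.32 log2 (adjusted p = 0.025), and a second probe gave 1.61. Its call was lost without BV6 3 h replicate 2 (adjusted p = 0.641) and the estimate was then 1.27. LIF, a cytokine gene of the IL6 family, rose from a range of 5.74 to 5.98 to 6.82 and 6.95 (1.02 ± 0.18, adjusted p = 0.0154, and 0.276 without BV6 3 h replicate 2), detected on 1 untreated array and on both BV6 arrays. IL6 itself fell just short: the untreated arrays read 7.33 to 8.53 and the BV6 arrays 9.39 and 9.35, all without overlap, but the difference of 1.35 ± 0.29 had an adjusted p = 0.0568.

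CXCL1 was detected on 0 untreated arrays and on 1 BV6 array, so it was not tested. Its BV6 mean was at least 3.34-fold higher, but that mean includes the BV6 array without detection and no error was estimated. CXCL2 was detected on 0 untreated and both BV6 arrays and stood at least 2.25-fold higher (adjusted p = 0.166). These bounds set the mean of the BV6 arrays against the higher of each untreated array's own reading and its lowest detected signal. For CXCL2 the bound equals the fitted change, 1.17 ± 0.33 log2, and carries the same error. CCL20, a chemokine gene, and TNF were detected on 0 of 8 arrays. In all, 8 of 21 chemokine and cytokine genes were tested, with 2 called higher, 0 lower and a median of 0.60 log2. CXCL2 and LIF passed the detection filter only through their BV6 arrays, so this count and median follow in part from the filter.

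Of 21 tested members of a list of other known NF-kB targets, 2 were called higher and 0 lower, with a median of 0.19 log2. EDN1, which encodes the vasoconstrictor peptide endothelin-1, read 7.44 to 8.18 untreated (median 7.49) and 9.11 and 9.47 with BV6, a rise of 1.70 ± 0.18 (adjusted p = 0.000242). CD83, a surface glycoprotein gene of activated immune cells, read 7.25 to 7.74 untreated and 8.86 and 8.43 with BV6 (1.16 ± 0.21, adjusted p = 0.0207), and its second probe gave 1.17. The CD83 call was lost without either BV6 array, with an adjusted p = 0.0652 without replicate 1 and 0.0913 without replicate 2. IRF1, an interferon regulatory factor, had both BV6 arrays (10.92 and 10.25) above the untreated range of 9.60 to 10.17 but missed the threshold (0.83 ± 0.18, adjusted p = 0.0659). SOD2, TNFAIP8 and TAP1, which encode a mitochondrial antioxidant enzyme, a cell-death regulator and a peptide transporter, had estimates of -0.17, -0.45 and -0.07, and ICAM1 was detected on 0 arrays.

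Among FOS, JUN, ATF3 and small MAF factors, 1 of 9 tested members was called. MAFF, a small MAF factor that lacks an activation domain of its own, read 6.07 to 7.43 untreated (median 6.83) and 7.89 and 8.11 with BV6 (1.18 ± 0.19, adjusted p = 0.00775, and 0.211 without BV6 3 h replicate 2), with 1.21 on a second probe. ATF3, a stress-induced repressor and activator, had a larger estimate of 1.39 ± 0.34 that did not pass (adjusted p = 0.0953): the BV6 arrays read 7.36 and 8.63 against 5.98 to 7.23. FOSL1, which encodes the AP-1 subunit FRA1, stood at 0.68 ± 0.17 (adjusted p = 0.0924) and JUN at 0.19 ± 0.16 (adjusted p = 0.696).

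FOS was detected on 0 of 8 arrays, with 5.20 to 5.66 untreated and 5.48 and 5.79 with BV6. FOSB was detected on 1 BV6 array only, and the mean of both BV6 arrays was at least 1.48-fold higher. JUNB was detected on 1 untreated array only. Neither FOS, FOSB nor JUNB entered the test. The median of the list was 0.19 log2.

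In the list of other immediate early genes, 1 of 13 tested members was called, CCN1, a matricellular protein gene, and the median was 0.43 log2. CCN1 read 11.79 to 12.45 untreated and 12.79 and 13.21 with BV6 (0.89 ± 0.18, adjusted p = 0.0371, and 0.678 without BV6 3 h replicate 2). Its relative CCN2 had no overlap either, with 12.15 to 13.06 against 13.28 and 13.62, and fell just outside the threshold (0.74 ± 0.16, adjusted p = 0.0568). EGR1, a zinc-finger immediate early factor, stood at 0.63 ± 0.23 (adjusted p = 0.32) and MYC at 0.56 ± 0.21 (adjusted p = 0.346). KLF4 had the largest estimate of the list, 1.27 ± 0.36 (adjusted p = 0.156), and it came from 1 array: the BV6 readings were 8.09 and 10.09, against 7.31 to 8.35 untreated.

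The stress and p53-type genes held the largest rise of all. GADD45A, a growth-arrest gene induced by DNA damage and other stresses, read 8.66 to 9.24 on the untreated arrays (median 9.11) and 10.51 and 11.04 with BV6, a rise of 1.75 ± 0.20 log2 (adjusted p = 0.000487), and 1.66 on a second probe. PLK2, a polo-like kinase gene, rose by 0.78 ± 0.16 (adjusted p = 0.0432) from 7.75 to 8.24 untreated to 8.96 and 8.67. Its adjusted p was 0.0923 without BV6 3 h replicate 1 and 0.164 without replicate 2. GADD45B missed the threshold narrowly (0.93 ± 0.20, adjusted p = 0.0568). CDKN1A, the p21 gene and a standard p53 target, had an estimate of 0.01 ± 0.19. With 2 of 12 tested members called higher, the list's median was 0.36 log2.

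A pair of aryl hydrocarbon receptor genes rose. CYP1B1, a cytochrome P450 enzyme gene and a classic target of that receptor, read 9.32 to 10.26 untreated (median 9.98) and 11.64 and 11.61 with BV6 (1.72 ± 0.17, adjusted p = 0.000126). TIPARP, a receptor target whose protein ADP-ribosylates and restrains the receptor, rose by 0.79 ± 0.14 (adjusted p = 0.0195, and 0.139 without BV6 3 h replicate 2) from 9.77 to 10.14 untreated to 10.83 and 10.66. CYP1A1, the most used marker of the receptor, was detected on 1 untreated and 1 BV6 array and stood at 0.49 ± 0.18 (adjusted p = 0.322), AHR itself at -0.19 ± 0.15, and NQO1 at -0.05 ± 0.17. Of 9 listed genes 5 were tested, with 2 called higher and a median of 0.49 log2. That median is the value of CYP1A1, which passed the detection filter only with its BV6 array, so it follows in part from the filter.

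HBEGF, a ligand of the EGF receptor, was the called member of its list of 5 tested genes. It read 9.79 to 10.37 untreated (median 10.10) and 11.03 and 11.05 with BV6 (0.94 ± 0.14, adjusted p = 0.00464, and 0.113 without BV6 3 h replicate 2). The receptor genes EGFR (0.20 ± 0.18) and ERBB2 (-0.47 ± 0.13, adjusted p = 0.148) did not pass, nor did ERBB3, which was detected on 0 BV6 arrays and was at least 1.37-fold lower (adjusted p = 0.252).

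The remaining genes called higher belong to no list used here. SLC30A1, the gene of the zinc exporter ZnT1, read 7.41 to 8.82 untreated (median 8.01) and 9.87 and 9.21 with BV6, a rise of 1.44 ± 0.19 (adjusted p = 0.00108), with 1.53 on a second probe. NOCT, which encodes nocturnin, a phosphatase under circadian control, rose from 6.95 to 7.72 (median 7.18) to 8.63 and 8.83 (1.46 ± 0.18, adjusted p = 0.000535). PER2, a repressor of the circadian clock, read 6.59 to 7.21 untreated and 7.95 and 7.97 with BV6 (0.97 ± 0.15, adjusted p = 0.00717, and 0.144 without BV6 3 h replicate 2). None of these groups overlapped.

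RCAN1, an inhibitor of the phosphatase calcineurin, rose by 1.24 ± 0.16 log2 (adjusted p = 0.001, and 0.0717 without BV6 3 h replicate 2) from 8.58 to 9.11 untreated to 9.87 and 10.36, and by 1.50 on a second probe. SAV1, a scaffold gene of the Hippo pathway, read 6.91 to 7.48 untreated and 8.15 and 8.75 with BV6 (1.25 ± 0.23, adjusted p = 0.025, and 0.629 without BV6 3 h replicate 2). ZNF697, a zinc-finger gene, went from 6.22 to 6.85 (median 6.46) to 7.60 and 8.12 (1.38 ± 0.16, adjusted p = 0.000535). The rises of the other genes outside the lists were 0.90 for RBM12, an RNA-binding protein gene, 0.88 for ZNF217, a transcriptional regulator often amplified in breast cancer, and 0.84 for CD55, which protects cells from complement. Both further RBM12 probes had the same sign. Without BV6 3 h replicate 2 the adjusted p was 0.201 for RBM12, 0.305 for ZNF217 and 0.659 for CD55.

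Promoter sequences from RefSeq (GRCh38.p14) could be matched to 20 of the 26 genes called higher, 9 of the 11 called lower and 7382 of the 8936 tested. Windows of 300 bases, 250 before and 50 after the annotated start, were scanned on both strands. The motifs were the NF-kB consensus site GGGRNNYYCC, the AP-1 site TGANTCA and the cyclic AMP response element (CRE) TGACGTCA, to which ATF and CREB proteins bind. The xenobiotic form TNGCGTG of the aryl hydrocarbon receptor was added. In these letters R is A or G, Y is C or T and N is any base. Only exact matches were counted, so a site that departs from the letters was missed. The NF-kB consensus site lay in 3 of 20 windows of genes called higher (15%), NFKBIA, ZNF697 and ZNF217, in 3 of 9 of genes called lower (33.3%), PLEKHH3, DMBT1 and NHERF1, in 12.7% of all tested and in 10.8% of all 27305 windows of the table. The AP-1 site was found in 1 of 20, CXCL8, and in 1 of 9, STARD8, against 4.47% of all tested and 7.76% of all windows. The xenobiotic form was found in 1 of 20, NOCT, and in 2 of 9, ID1 and STARD8, against 7.69% and 5.51%. The CRE occurred in 3 of 20, MAFF, BIRC2 and RBM12, and in 0 of 9, against 3.56% of all tested and 1.98% of all windows. A match is a string of letters and not a shown binding site, and RefSeq's start need not be the one these cells use.
The 250 bases before the start are printed for 4 of these genes, 5′ to 3′ on the gene's own strand, with the match in capitals: NFKBIA (chr14:35404750-35404999, minus strand) and ZNF697 (chr1:119648267-119648516, minus strand) for the NF-kB consensus, which begins 81 and 93 bases before the start and reads on the opposite strand, CXCL8 (chr4:73740319-73740568, plus strand) for the AP-1 site at 137 bases, and MAFF (chr22:38201744-38201993, plus strand) for the CRE at 54 bases.
NFKBIA: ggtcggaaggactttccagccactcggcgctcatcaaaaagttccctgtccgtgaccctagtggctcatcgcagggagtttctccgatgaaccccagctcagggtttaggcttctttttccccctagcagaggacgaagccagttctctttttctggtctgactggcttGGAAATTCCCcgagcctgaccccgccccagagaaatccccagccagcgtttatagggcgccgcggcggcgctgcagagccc
ZNF697: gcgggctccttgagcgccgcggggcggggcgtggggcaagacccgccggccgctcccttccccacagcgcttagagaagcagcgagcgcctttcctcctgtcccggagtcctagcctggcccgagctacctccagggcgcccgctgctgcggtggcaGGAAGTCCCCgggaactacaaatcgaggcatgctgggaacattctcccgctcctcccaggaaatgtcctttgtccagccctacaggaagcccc
CXCL8: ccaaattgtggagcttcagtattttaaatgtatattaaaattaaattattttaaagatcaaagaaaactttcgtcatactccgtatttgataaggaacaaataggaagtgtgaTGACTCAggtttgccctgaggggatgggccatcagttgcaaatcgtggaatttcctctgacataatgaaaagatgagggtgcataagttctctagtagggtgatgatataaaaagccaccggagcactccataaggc
MAFF: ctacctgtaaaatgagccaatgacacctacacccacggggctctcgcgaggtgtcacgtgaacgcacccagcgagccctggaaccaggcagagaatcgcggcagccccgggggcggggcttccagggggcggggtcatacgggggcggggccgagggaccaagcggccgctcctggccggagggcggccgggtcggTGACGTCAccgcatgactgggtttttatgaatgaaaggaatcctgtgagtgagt

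Among genes of Wnt signalling and SOX factors, 2 of 10 tested members were called lower and 0 higher, with a list median of -0.35 log2. NDP, which encodes norrin, a ligand that activates the Wnt receptor FZD4, read 7.81 to 8.40 untreated (median 8.07) and 6.81 and 6.72 with BV6, a change of -1.36 ± 0.19 log2 (adjusted p = 0.00144, and 0.0717 without BV6 3 h replicate 2). It was detected on all 6 untreated arrays and on 1 BV6 array. SOX9, a transcription factor of progenitor cells, fell from 9.65 to 9.98 untreated to 9.22 and 8.94 (-0.71 ± 0.14, adjusted p = 0.036, and 0.634 without BV6 3 h replicate 2), and SOX4 missed the threshold (-0.96 ± 0.22, adjusted p = 0.0739). In the same list FZD7, a Wnt receptor gene, pointed the other way at 0.78 ± 0.18 (adjusted p = 0.0862), and its second probe gave -0.26.

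ID1, an inhibitor of basic helix-loop-helix factors and a target of BMP signalling, read 10.64 to 11.22 untreated (median 10.95) and 10.03 and 9.53 with BV6 (-1.15 ± 0.19, adjusted p = 0.0123). A second ID1 probe gave -0.39, and the adjusted p was 0.38 without BV6 3 h replicate 2. Its paralogue ID3 had the opposite sign, 0.66 ± 0.17, and did not pass (adjusted p = 0.101), although its BV6 readings of 9.83 and 9.33 both exceeded the untreated 8.57 to 9.03. No other of the 9 tested genes of BMP and activin signalling was called, and the list's median was 0.01 log2.

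SPRY1, a feedback inhibitor of receptor tyrosine kinase signalling, read 10.27 to 10.69 untreated (median 10.52) and 9.60 and 9.54 with BV6 (-0.95 ± 0.16, adjusted p = 0.0154, and 0.224 without BV6 3 h replicate 2), with -0.89 on a second probe. It was the called member among 10 tested Sprouty and DUSP genes, whose median was 0.06 log2; SPRY2 stood at 0.38 ± 0.18 (adjusted p = 0.456). IRF2BP2, a co-repressor of IRF2, read 7.97 to 8.48 untreated (median 8.23) and 7.10 and 6.87 with BV6 (-1.23 ± 0.17, adjusted p = 0.00144, and 0.0913 without BV6 3 h replicate 2), and its second probe gave -0.46. Neither gene's groups overlapped.

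PFKFB4, an enzyme gene that sets the level of a glycolytic activator, read 7.95 to 8.99 untreated (median 8.72) and 7.86 and 7.28 with BV6 (-1.02 ± 0.19, adjusted p = 0.0263, and 0.659 without BV6 3 h replicate 2), so replicate 1 lay only just below the lowest untreated array. It was the called member of 19 tested hypoxia and glycolysis genes, whose median was -0.14 log2. SLC2A3, the gene of the glucose transporter GLUT3 (-0.75 ± 0.17, adjusted p = 0.0736), and ADM, which encodes adrenomedullin (0.71 ± 0.16, adjusted p = 0.0744), lay just outside on opposite sides. The estimate for VEGFA was -0.70 ± 0.20 (adjusted p = 0.166).

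TMEM79 and DMBT1 were detected on 0 BV6 arrays. TMEM79, a membrane protein gene, was at least 2.11-fold lower (7.02 to 7.63 untreated, 6.33 and 6.18 with BV6, adjusted p = 0.0357). DMBT1, a scavenger-receptor-like glycoprotein gene detected on 4 of 6 untreated arrays, was at least 2.01-fold lower (6.11 to 7.47 untreated, 5.68 and 5.81 with BV6, adjusted p = 0.0271). The other genes called lower were PLEKHH3 (-1.03), STARD8 (-0.97) and NHERF1 (-0.67), a scaffold protein gene of the cell cortex. Among the 11 genes called lower, the BV6 arrays were farthest apart for PLEKHH3, 6.95 and 5.93 against 7.31 to 7.58 untreated, and without BV6 3 h replicate 2 its adjusted p was 0.908. Without the same array the adjusted p was 0.467 for TMEM79, 0.224 for DMBT1, 0.275 for STARD8 and 0.659 for NHERF1, and without replicate 1 it was 0.0548 for DMBT1.

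**Figure D3:**
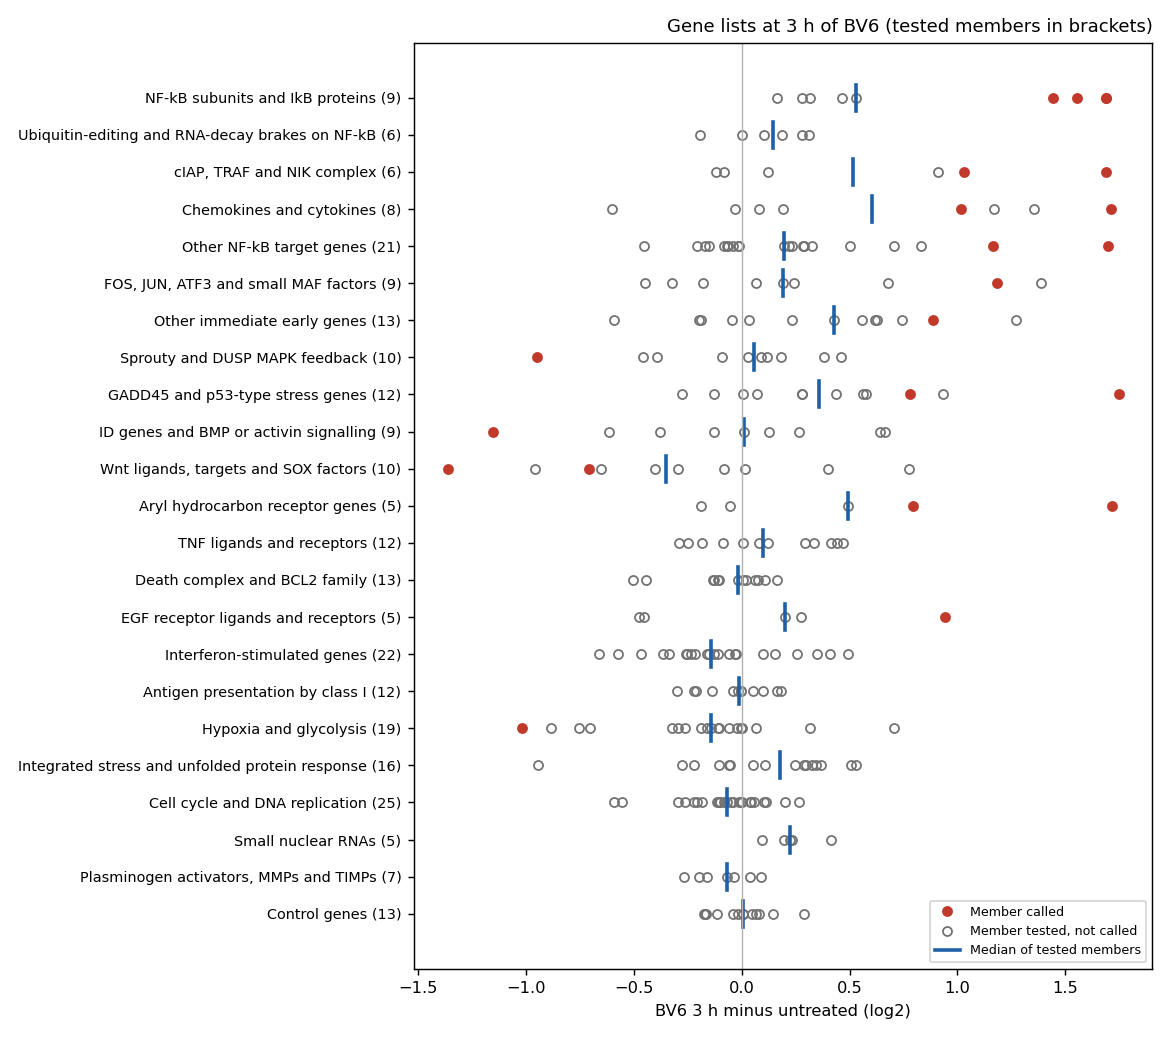
Estimated change of every tested member of 23 gene lists at 3 h (BV6 minus untreated, log2, x axis), with the number tested in brackets. Filled red circles were called and open circles were not, and blue bars are list medians; the medians of the NF-kB, NIK-complex and cytokine lists lie above 0.5, and those of the death, cell cycle, class I and control lists near 0.

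Lists outside these groups held no called gene. Of 12 tested TNF ligands and receptors 0 were called (limma, median 0.10 log2), with TNFRSF10B, a TRAIL receptor, at 0.44 ± 0.13 (adjusted p = 0.179) and TNFRSF1A, the receptor TNFR1, at -0.25 ± 0.17. The 13 death-complex and BCL2 family genes had a median of -0.02, with FADD lowest at -0.50 ± 0.14 (adjusted p = 0.177). Cell cycle genes (25 tested, median -0.07), class I antigen presentation (12, -0.01), plasminogen activators and metalloproteinases (7, -0.07) and small nuclear RNAs (5, 0.22) likewise had no call, and 13 control genes had a median of 0.01. Beside these counts, 1025 of all 8936 genes (11.5%) had an unadjusted p under 0.05.

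Some of these lists differed between the BV6 arrays. The 22 interferon-stimulated genes had a median of -0.14 log2 with 0 called, made of 0.10 on replicate 1 and -0.35 on replicate 2. The 16 genes of the integrated stress and unfolded protein responses had a median of 0.18 with 0 called, made of -0.06 on replicate 1 and 0.43 on replicate 2. ATF4, the central factor of that response, read 12.13 to 12.58 untreated and 12.45 and 13.19 with BV6, and MX1, an interferon-induced antiviral gene, read 7.80 to 8.41 untreated and 8.25 and 7.11 with BV6. For both genes replicate 1 lay inside the untreated range and replicate 2 outside it. The part of the array difference in these medians was not tested.

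Near the threshold the called genes gave way evenly. The last called on the higher side were CD55 (adjusted p = 0.0357), CCN1 (0.0371) and PLK2 (0.0432), and the first not called were TRNT1 (0.0557), CCN2, VEGFC, GADD45B and IL6 (0.0568 each). On the lower side the last called were SOX9 (0.036), PLEKHH3 (0.039) and NHERF1 (0.0408), and the first not called were N4BP2L2 (0.0547), TENT5A and ABCC5 (0.0557 each), PMEPA1 (0.0568) and SSH2 (0.0579). VEGFC, a growth factor gene for lymphatic vessels, had both BV6 arrays (9.99 and 10.23) above its untreated range of 9.21 to 9.56, and ABCC5, an efflux transporter gene, was detected on 0 BV6 arrays and was at least 2.28-fold lower.

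The untreated arrays themselves span 15 h. Between untreated cells of 15 h and of 0 h, limma called 0 of 8936 genes (0%), and 264 (2.95%) had an unadjusted p under 0.05. The 37 genes called with BV6 differed between those untreated times by -0.41 (NFKB2) to 0.39 (SLC30A1) log2, each smaller than its change with BV6. They were picked for a BV6 change large against a spread that includes these arrays, so that ordering was largely set by the choice. No untreated array was collected at 3 h, so what untreated cells do at that hour was not measured. Against the 0 h arrays alone 19 genes were called, against the 9 h arrays alone 16, and against the 15 h arrays alone 26.

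The later BV6 arrays of the same time course were used to follow the 37 genes, each time against the same 6 untreated arrays, which these values therefore share. The median of the 26 higher genes was 1.24 log2 at 3 h, then 0.75 at 6 h, 0.77 at 9 h, 0.79 at 12 h and 0.65 at 15 h. For 16 of the 26 the 3 h value was the highest, and for 4 it was the 15 h value. The median of the 11 lower genes went from -1.02 at 3 h through -0.53, -0.27 and -0.27 to -0.09 at 15 h. LIF was detected on 0 BV6 arrays at 9, 12 and 15 h, and without it the medians of the higher genes at those times were 0.86, 0.89 and 0.67. The genes were picked for their 3 h change, so a smaller median later can follow in part from that choice.

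**Figure D4:**
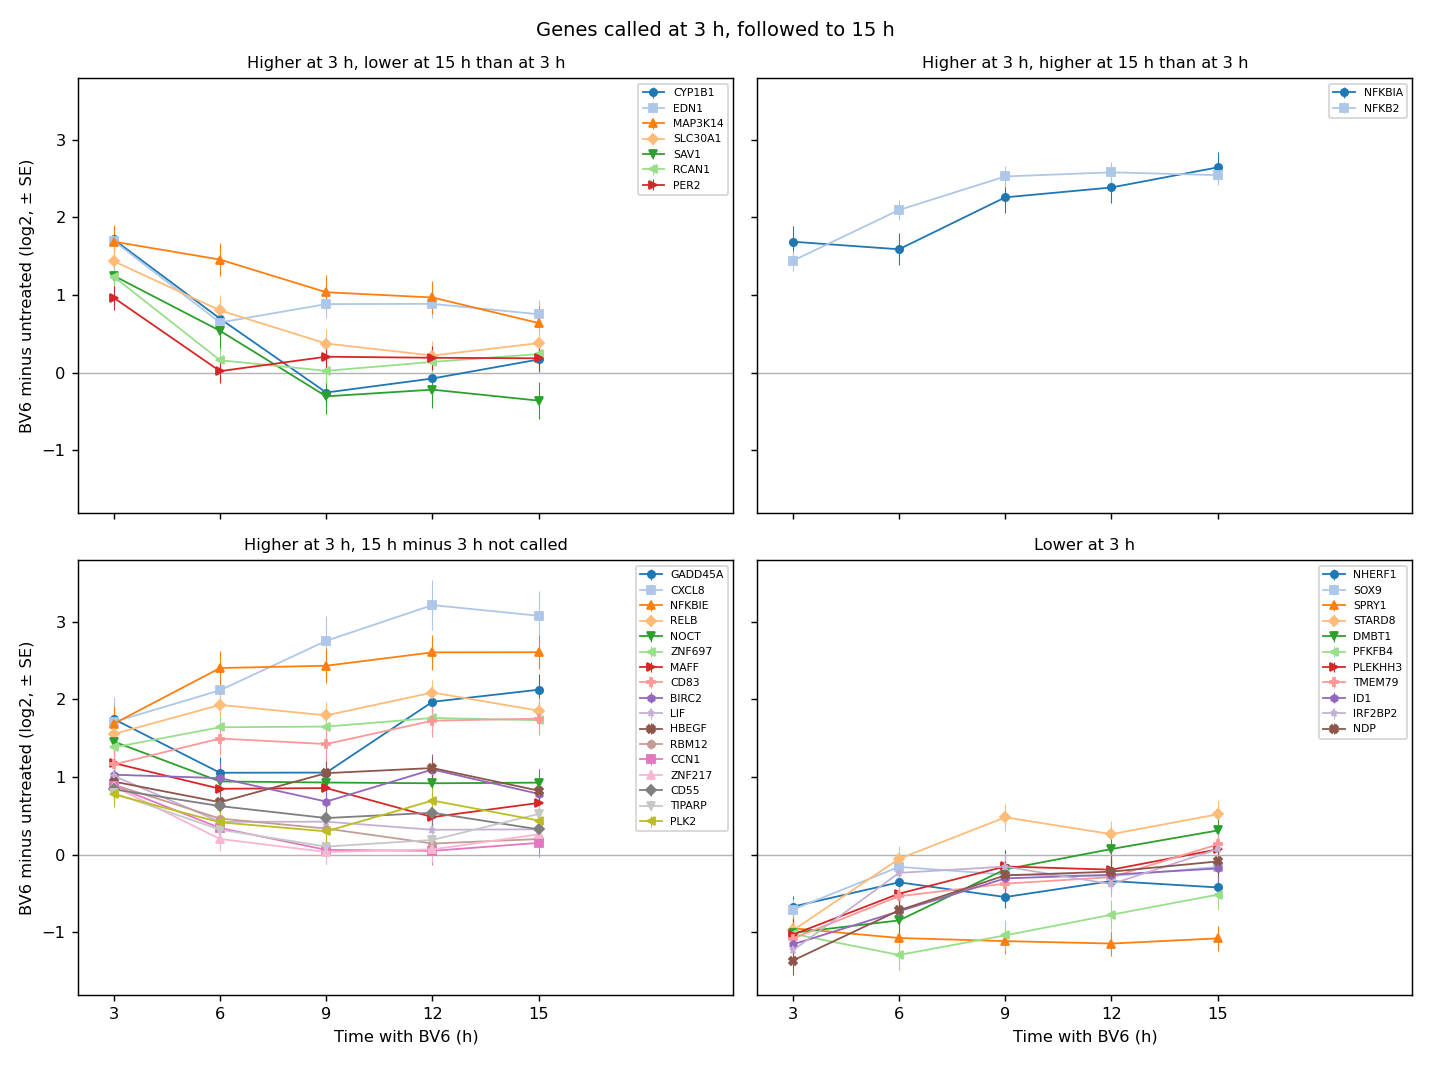
BV6 minus untreated (log2, y axis, bars ± SE from the fit) for the 37 genes called at 3 h, at 3, 6, 9, 12 and 15 h with BV6 (x axis; 2 BV6 arrays per time, the same 6 untreated arrays throughout). CYP1B1, SAV1, RCAN1 and PER2 lie between -0.30 and 0.21 at 9 h, NFKB2 and NFKBIA climb above 2, and most lower genes approach 0 while SPRY1 stays near -1.

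A test of 15 h against 3 h with BV6 called 361 of 8936 genes (4.04%), 211 higher at 15 h (2.36%) and 150 lower (1.68%). The count was 716 without BV6 3 h replicate 1, 163 without BV6 3 h replicate 2, and 110 and 125 without BV6 15 h replicate 1 and replicate 2. Of the 26 genes, 7 were lower at 15 h than at 3 h and 2 higher, and of the 11, 7 were higher at 15 h. Since the 3 h arrays both picked the genes and enter this difference, the counts are not read against the background. CYP1B1 went from 1.72 at 3 h to 0.70 at 6 h and -0.25 at 9 h, and its difference of 15 h from 3 h was -1.54 ± 0.20 (adjusted p = 0.000379). SAV1 went from 1.25 to -0.30 at 9 h (difference -1.61 ± 0.29, adjusted p = 0.00477), and RCAN1 from 1.24 to 0.16 at 6 h and 0.24 at 15 h (-0.997 ± 0.20, adjusted p = 0.0098). PER2 stood at 0.02 by 6 h.

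Other members kept or widened their change. NFKB2 rose on to 2.10 at 6 h and 2.55 at 15 h (difference from 3 h 1.10 ± 0.16, adjusted p = 0.000948), and NFKBIA to 2.64 (0.96 ± 0.25, adjusted p = 0.0435). RELB was nearly level, at 1.93, 1.80, 2.09 and 1.86 from 6 to 15 h. MAP3K14, called with them at 3 h, declined to 0.64 at 15 h (difference -1.05 ± 0.26, adjusted p = 0.0371), and EDN1 to 0.75. SPRY1 stayed at -1.08 at 15 h, whereas NDP came back to -0.09 (difference 1.28 ± 0.23, adjusted p = 0.00477), IRF2BP2 to 0.07 (1.30 ± 0.21, adjusted p = 0.0019) and ID1 to -0.18. STARD8 crossed over, from -0.97 at 3 h to 0.48 at 9 h and 0.52 at 15 h (difference 1.50 ± 0.21, adjusted p = 0.000675).

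Replicate 2 of each later time lay on another slide than all 3 h arrays. The 12 arrays of the shared slide therefore hold 1 array of 15 h and 1 of 6 h, each assumed to vary like the other groups of that fit. All 16 differences of 15 h from 3 h had the same sign there, and 5 passed the test (CYP1B1, NFKB2, NDP, IRF2BP2 and STARD8), out of 97 calls over all genes. Without BV6 3 h replicate 1, 13 of the 16 were called, and without replicate 2, 7.

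Several genes that were uncalled at 3 h were far higher later. TRAF1 was the only one of 8936 genes (0.0112%) called between 6 h and 3 h of BV6: it went from 0.91 at 3 h to 3.00 at 6 h (difference 2.09 ± 0.30, adjusted p = 0.032). At an unadjusted p under 0.05 there were 548 genes (6.13%). That call was lost on the arrays of the shared slide, where limma called 0 genes, and without BV6 6 h replicate 1 or replicate 2, with 0 calls each. Without BV6 3 h replicate 1 the comparison had 48 calls. CXCL2, detected on 0 untreated arrays, went from at least 2.25-fold above them at 3 h to at least 28.1-fold at 15 h. EGR1 went from 0.63 log2 at 3 h to 3.86 at 15 h, ATF3 from 1.39 to 3.56, IL6 from 1.35 to 2.93 and JUN from 0.19 to 1.35.

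Separate arrays of siRNA-transfected MDA-MB-231 cells, collected after 9 h with 50 nM BV6 (3 arrays per group, 5 nM siRNA for 36 h beforehand), show which of the 3 h genes moved in cells that took no part in choosing them. With a control siRNA (siCtrl), BV6 changed 244 of 9586 genes, 167 higher (1.74%) and 77 lower (0.803%). Replicate numbers paired these arrays, and with the pairing as a block the count was 389. Without siCtrl BV6 replicate 1 it was 132. All 37 genes were measured. Of the 26 called higher at 3 h, 12 were called higher here (13 with the block), namely GADD45A, CXCL8, MAP3K14, NFKBIE, NFKBIA, RELB, NFKB2, ZNF697, MAFF, CD83, BIRC2 and HBEGF, and 21 had the same sign.

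The largest of these rises were those of NFKB2 at 2.62 ± 0.18 log2 (adjusted p = 3.32e-10), NFKBIA at 2.22 ± 0.19 (adjusted p = 1.77e-08) and NFKBIE at 1.89 ± 0.16 (adjusted p = 9.35e-09). ZNF697 stood at 1.51 ± 0.14 and GADD45A at 1.30 ± 0.12. CYP1B1 (-0.35 ± 0.14, adjusted p = 0.211), SLC30A1 (-0.31 ± 0.13), RCAN1 (-0.30 ± 0.14) and SAV1 (-0.23 ± 0.20), were not called and had the opposite sign to 3 h. At 9 h in untransfected cells these genes stood at -0.25, 0.38, 0.02 and -0.30. Of the 11 genes called lower at 3 h, 1 was called lower here, SPRY1 at -0.97 ± 0.15 (adjusted p = 0.000248), or 2 with the block, and 9 had the same sign. The 3 h arrays differ from these in hours and in transfection. The untransfected BV6 9 h arrays share their dose and hours but not the transfection or the normalization, and the median of the 26 genes was 0.77 there and 0.58 with siCtrl; that difference was not tested.

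**Figure D5:**
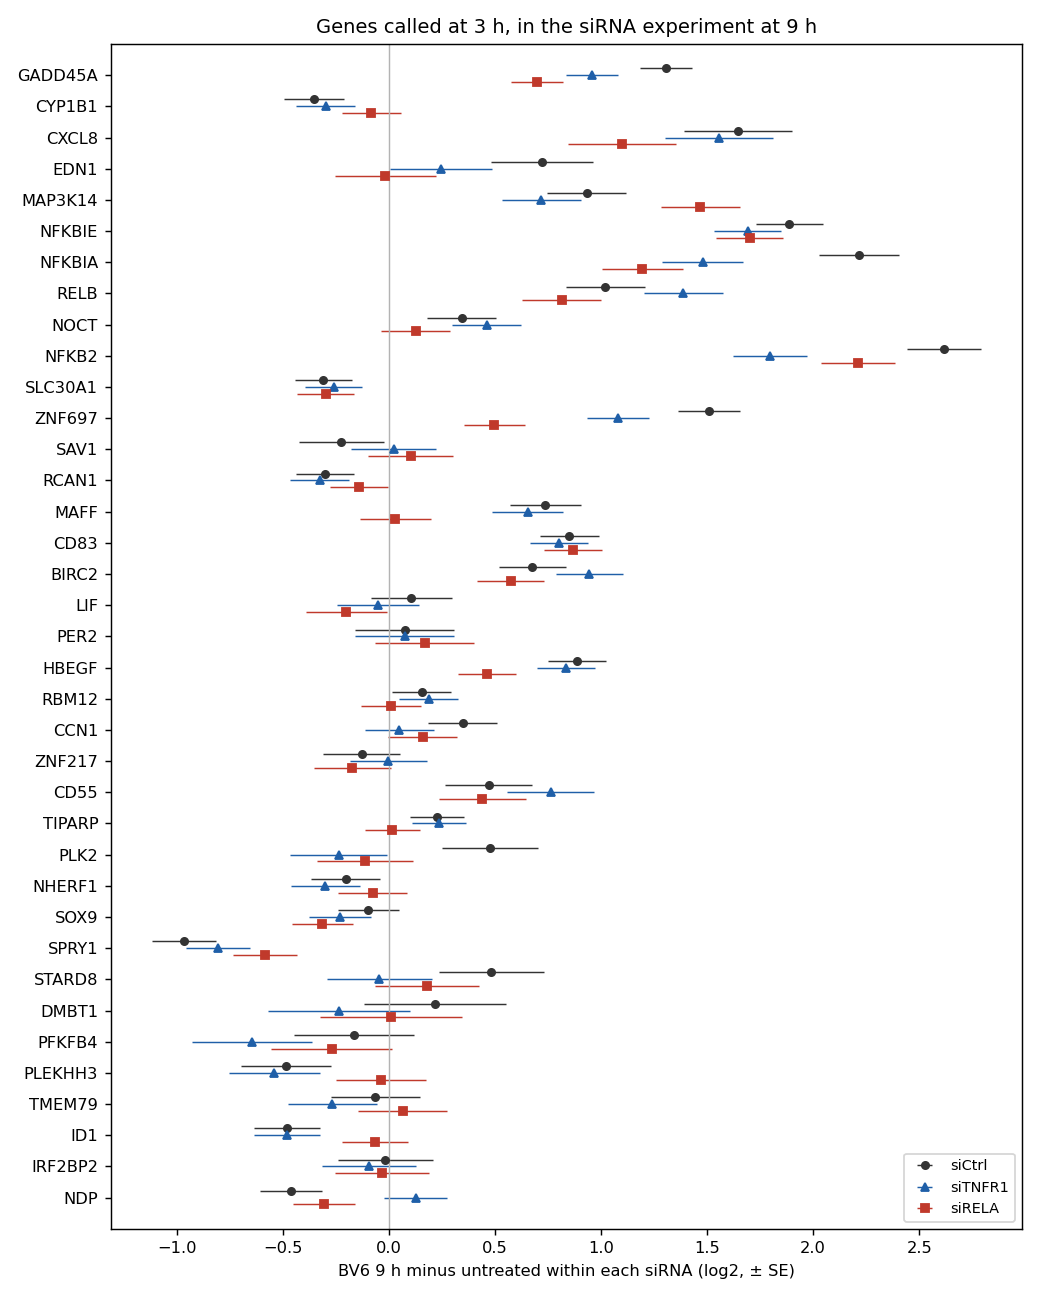
BV6 9 h minus untreated (log2, x axis, bars ± SE, 3 arrays per group) for the 37 genes called at 3 h (rows), in cells with siCtrl (black circles), siTNFR1 (blue triangles) and siRELA (red squares). NF-kB pathway genes lie to the right under each siRNA, MAP3K14 is highest with siRELA, and CYP1B1, SLC30A1 and RCAN1 lie at or left of 0.

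The same experiment tells how these genes responded with less TNFR1 or RELA. The knockdown targets behaved as labelled: TNFRSF1A was detected on 3 of 3 untreated siCtrl arrays and 0 of 3 untreated siTNFR1 arrays, and RELA on 3 of 3 siCtrl and 0 of 3 siRELA arrays. The median BV6 response of the 26 genes was 0.58 log2 with siCtrl, 0.56 with siTNFR1 and 0.16 with siRELA, against medians of all tested genes of -0.02, -0.02 and -0.01. With genes undetected in a group at their bound, or left out where no fold can be given, the medians of the 26 were 0.58, 0.65 and 0.16. Within slide 1 those medians were 0.66, 0.38 and 0.30, and within slide 2 they were 0.49, 0.55 and 0.24. The 11 lower genes had medians of -0.16, -0.27 and -0.06.

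As differences of response, limma called 1 of 9586 genes for siTNFR1 minus siCtrl (0.0104%) and 4 for siRELA minus siCtrl (0.0417%), and 0 of the 37 in either. Both differences share the siCtrl arrays. At an unadjusted p under 0.05, 4 of the 26 were lower with siTNFR1 (NFKB2, NFKBIA, PLK2 and ZNF697; 3.36% of all genes) and 6 with siRELA (EDN1, GADD45A, HBEGF, MAFF, NFKBIA and ZNF697; 2.91% of all genes). With the replicate block 1 of the 26 was called lower with siRELA. The nearest to a call without the block was ZNF697, whose response was 1.51 with siCtrl, 1.08 with siTNFR1 and 0.50 with siRELA (siRELA minus siCtrl -1.01 ± 0.20, adjusted p = 0.0653).

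For NFKBIA the response was 2.22 with siCtrl, 1.48 with siTNFR1 and 1.19 with siRELA, and the siRELA difference of -1.02 ± 0.27 had an adjusted p = 0.353. NFKBIE, by contrast, read 1.89, 1.69 and 1.70, and CD83 0.85, 0.80 and 0.87. Each response is relative to untreated cells with the same siRNA, and those levels differed. Without BV6, siCtrl and siRELA means were 10.12 and 9.02 for NFKBIA, 8.12 and 7.26 for NFKBIE and 8.45 and 6.96 for CD83. For CXCL8 they were 10.26 and 6.93, while TIPARP (10.01 and 10.68) and ZNF217 (8.15 and 8.61) went the other way. These differences in level were not tested. MAP3K14 had its largest response with siRELA, 1.47 ± 0.19 against 0.93 with siCtrl, a difference of 0.54 ± 0.26 (adjusted p = 0.95). A difference that misses the threshold does not show equal responses: among the 26 genes, the standard errors of the siRELA difference ran from 0.17 (GADD45A) to 0.36 (CXCL8).

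The genes called lower with siRELA were not among the 37. Each was undetected on all arrays of at least 1 group, so the tests of the difference use readings near background and no size is given for it. CXCL2 rose by 3.11 ± 0.24 log2 with siCtrl and was detected on 0 of 3 siRELA arrays with or without BV6. With BV6 its mean was 8.90 with siCtrl and 5.48 with siRELA, at least 10.5-fold lower (adjusted p of the difference in response 1.09e-05). CXCL1, also undetected on all siRELA arrays, rose by 2.74 log2 with siCtrl and was at least 12.9-fold lower with siRELA and BV6 (means 9.51 and 5.82, adjusted p of the difference in response 2.95e-06). TRAF1 was undetected without BV6 under both siRNAs, and BV6 brought it at least 10.2-fold higher with siCtrl and at least 1.81-fold higher with siRELA (adjusted p of the difference 2.32e-06). These TRAF1 bounds equal its fitted responses and carry the same error. The fourth was SNORA80A, a small nucleolar RNA gene at least 3.25-fold higher after BV6 with siCtrl and undetected on all siRELA and siTNFR1 arrays, which was also the 1 gene called for siTNFR1. Without siTNFR1 BV6 replicate 1 or replicate 2 that comparison had 2 calls.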

How the data were processed

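The data are 1 Illumina HumanHT-12 array per sample, made per the labels from column-purified total RNA with biotin-labelled cRNA. The authors deposited a table of 48107 probes with a signal and a detection p-value per array; its values run from 5.47 to 14.9, so the deposited signals were read as log2 and raised to the power of 2. How the detection p was computed, and the scanner software, are not given in the sources used here. In log2 units, the authors' series matrix correlated with these signals at r of 0.998 to 1.00 per array and served as an alternative. Of the probes, 3 were dropped for missing values, 30112 had 1 gene symbol in the platform annotation, 8 had several and 17984 none.

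The 16 untransfected arrays were processed together in R 4.3.3 with limma 3.58.1: neqc background correction with negative controls inferred from the detection p, an offset of 16, and quantile normalization. Such steps compress small changes of dim genes. One limma fit with 1 coefficient per group (8 groups of 2, 8 residual degrees of freedom) gave every time course contrast, BV6 3 h being set against the mean of the 3 untreated groups. The 24 siRNA arrays were fitted in the same way (16 degrees of freedom, detection on 3 arrays, 9586 genes). All tests are two-sided, with Benjamini-Hochberg adjustment over every gene tested. An adjusted p under 0.05 was a call, and ± is the standard error of the fit.

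A gene detected on 0 or 1 untreated arrays can enter through its rise with BV6, as CXCL2, LIF and RELB did. List counts and medians cover tested members only and therefore do not remove this effect of the filter. Where every array of a group missed detection, the text gives an "at least" bound for the gene, and list medians, tests and figures use the fitted value. At 3 h the bounds of CXCL2, TMEM79 and DMBT1 equal their fitted changes, as do those of TRAF1 in the siRNA experiment. The bound of CXCL2 at 15 h lies close to its fitted 4.82 log2. "At least" refers to the undetected group's reading and does not allow for sampling error, so a bound is not a guaranteed minimum. Tested on simulated data with 8936 genes, the 3 h comparison recovered 74 of 100 genes changed by 1 log2 unit and 100 of 100 changed by 2, with 13 false calls.

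The text names every called gene, up to 4 members per list with the strongest test values, fixed pathway genes, and the genes nearest the threshold. Members and the 27 gene lists were chosen with earlier results of these data known. Replicate numbers were taken to pair arrays where at least 3 pairs of same-numbered arrays were compared and each had deviations correlated above 0.1. This held for siCtrl (0.127 to 0.242) and not at 3 h (-0.080 to 0.186). It did not hold for every pair in the siTNFR1 difference (-0.053 to 0.326) or the siRELA difference (0.051 to 0.392). Both were fitted unpaired, with the replicate block as an alternative. Alternatives covered normalization, filters, blocks, untreated references, probe choice, array weights and leaving out each array.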

Additional observations from a re-analysis of the deposited data

Results flagged for a closer look

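Among the 50 genes whose 6 untreated arrays were checked for a single array far from the others, 6 had one, and chance gives about 1 in 20 such groups. EDN1 was highest on untreated 0 h replicate 2, at 8.18 log2, still below both BV6 arrays. NFKBIA was lowest on untreated 9 h replicate 2, at 10.12, STARD8 on untreated 0 h replicate 1, at 6.96, and ID3 on untreated 15 h replicate 1, at 8.57. CXCL2 was highest on untreated 0 h replicate 2, at 6.00, and IRF1 on untreated 0 h replicate 1, at 10.17.

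The change differed between 15 h and 3 h with BV6 for 16 of the 37 genes called at 3 h and for several fixed pathway genes. On the log2 scale, as 15 h minus 3 h, the genes that had been higher at 3 h and declined were CYP1B1 (-1.54), EDN1 (-0.94), MAP3K14 (-1.05), SLC30A1 (-1.06), SAV1 (-1.61), RCAN1 (-0.997) and PER2 (-0.78), while NFKBIA (0.96) and NFKB2 (1.10) went further up. Genes lower at 3 h that came back were NDP (1.28), IRF2BP2 (1.30), ID1 (0.98), TMEM79 (1.21), PLEKHH3 (1.10), DMBT1 (1.32) and STARD8 (1.50). Genes not called at 3 h that were higher at 15 h were TRAF1 (1.82, and 2.09 by 6 h), JUN (1.16), ATF3 (2.17), EGR1 (3.24), CXCL2 (3.65) and IL6 (1.57). Between siRNAs, the BV6 response at 9 h was lower with siRELA than with siCtrl for TRAF1 (-2.50), CXCL1 (-2.58) and CXCL2 (-3.05). These 3 fitted values, and those of TMEM79 and DMBT1 above, use readings of groups in which no array detected the gene, so they are not sizes of change.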

How the results depend on the processing

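The precision is limited by 2 BV6 arrays that differ from each other, and by signal over background for dim genes such as RELB and MAP3K14. Of the 37 genes, 10 were called under all 24 alternatives to the 3 h comparison (GADD45A, CYP1B1, EDN1, MAP3K14, NFKBIE, NFKBIA, RELB, NOCT, NFKB2 and ZNF697), and 0 of the 37 changed sign under any. The 37 calls became 65 with the series matrix and 65 with no background correction, 21 with no detection filter, 19, 16 and 26 against untreated 0 h, 9 h or 15 h cells alone, 15 with array weights, and 13 to 391 when 1 array was left out. With the replicate number as a block there were 81, of which 51.9% were higher against 70.3% in the main fit; same-numbered arrays did not deviate together at 3 h, so the numbers are not read as pairing. For untreated 15 h against 0 h, the 0 calls became 1 with the series matrix and 1 with no background correction. For BV6 6 h against 3 h, the 1 call became 4 with each of those, 0 with no filter, 2 when detection was needed on every array of a group, 3 with the replicate block, 3 with slide as a block, 0 on the shared slide, and 0 to 48 with 1 array left out. For 15 h against 3 h, 361 became 658 with the replicate block, 97 on the shared slide, and 110 to 716 with 1 array left out. For siCtrl, 244 became 389 with the pairing as a block and 132 to 233 with 1 array left out. For siTNFR1 minus siCtrl, 1 became 10 with the series matrix, 10 with no background correction, 2 with no filter, 3 with the replicate block, 2 with the slide block, and 1 to 2 with 1 array left out. For siRELA minus siCtrl, 4 became 8 with detection on every array of a group, 8 with the replicate block, 10 with the slide block, and 4 to 6 with 1 array left out. The causes were not tested. Over the 130 named gene results, 2780 of 3112 alternative values kept their side of the threshold, and a change of sign between uncalled values was counted among these. A further 224 lost the call, 108 gained one, and 0 changed sign with a call in either fit. Of 647 list medians, 61 moved.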
